A study of Chlorocebus sabaeus with 45 samples.

Results

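The genes described here encode the CREB, ATF and CRTC transcription factors: CREB1, CREM, ATF1, ATF2, ATF7, CREB5, CRTC1, CRTC2, CRTC3 and the coactivator CREBBP. They were taken by gene symbol from a set proposed with earlier results of these data in view, and make up 10 of the 33994 genes listed for each library. All 10 were present and all 10 had enough fragments to be tested, among 18753 tested genes. The libraries came from whole blood of 15 juvenile male vervet monkeys (Chlorocebus sabaeus), and each animal was bled on days 0, 3 and 14 of a relocation and quarantine that served as a psychosocial stressor, which gave 45 libraries.

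The monkeys were wild-born on the Caribbean island of St. Kitts, and each came from a different troop. Day 0 blood was drawn in the field just after trapping, under ketamine and xylazine. On days 3 and 14 the animals were living in individual housing and were bled under dexmedetomidine and midazolam. Place, housing and sedative therefore all changed between day 0 and the later days, and they cannot be told apart from the effect of the stressor. No group that stayed in the field is among these samples, so age and time in captivity also run with the day.

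CREB1, CREM and ATF1 are closely related leucine zipper proteins that bind the cyclic AMP response element (CRE), a short DNA motif found in the promoters of many rapidly induced genes. Hormones that raise cyclic AMP, such as adrenaline, and signals that raise calcium lead to phosphorylation of these proteins, and the phosphorylated form recruits CREBBP, a histone acetyltransferase. ATF2, ATF7 and CREB5 form a second branch that pairs with JUN proteins and is activated by stress kinases. The CRTC proteins are held in the cytoplasm by salt-inducible kinases and enter the nucleus once calcineurin removes their phosphates, where they bind CREB1 and raise transcription.

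Levels are given as scaled FPKM, that is, fragment counts per gene length and per library total (FPKM), divided by a factor for each library (the trimmed mean of M values, TMM) that aligns the typical gene between libraries. Between 13216275 and 31469332 fragments per library fell on genes, with medians of 22963964, 22754349 and 22758493 on days 0, 3 and 14. The least covered of the 10 genes was CRTC1, with between 33 and 688 fragments per library. Changes are differences of log2(scaled FPKM + 0.1), tested with limma, two-sided, and called at a Benjamini-Hochberg adjusted p under 0.05 over all tested genes. In whole blood, fewer cells of a type and less RNA per cell cannot be told apart.

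Some libraries stood apart for these genes. The day 3 library of animal 8 had the highest level of all 45 libraries for ATF7, CRTC1, CRTC2, CRTC3 and CREBBP and the lowest for ATF2. In the study's supplement that library also has the lowest RNA integrity number of the 45. The day 0 libraries of animals 7, 11 and 15 had the highest levels of CREB5 together with the highest summed levels of neutrophil, monocyte and pan-leukocyte genes on that day. Calls on the 10 genes that were lost without these libraries are given with and without them.

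Every call among the 10 genes was a fall. On day 3 vs. day 0, 3 of the 10 were called (CREB1, ATF2 and CREB5), where 12.2% of all tested genes were called and 6.19% were called as falls. By day 14, 6 of the 10 were called against day 0 (CREB1, CREB5, ATF7, CRTC1, CRTC2 and CRTC3), beside 36.0% of all tested genes and 17.3% as falls. Between days 3 and 14, 3 of the 10 were called (CRTC1, CRTC2 and CRTC3), against 13.3% of all tested genes and 5.0% as falls. The shares of all tested genes called as rises were 6.04%, 18.8% and 8.32% in the same order. By limma 0 of the 10 rose in any comparison, and at an unadjusted p under 0.05 the only rise was that of ATF2 on day 14 vs. day 3. The median log2 fold change of the 10 genes was −0.20, −0.40 and −0.30 in the 3 comparisons, beside 0.01, −0.02 and −0.02 over all tested genes. These counts come from a fit with 1 mean per day that leaves out the pairing of samples by animal. With a replicate block for the animal, 5, 6 and 4 of the 10 genes were called in the 3 comparisons (ATF1 and CREM on day 3 and ATF7 on day 14 vs. day 3 in addition), and 3592, 8249 and 4455 of all tested genes in place of 2292, 6753 and 2498. For every one of the 10 genes the ranges of the 15 animals overlapped between each pair of days.

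**Figure D1:**
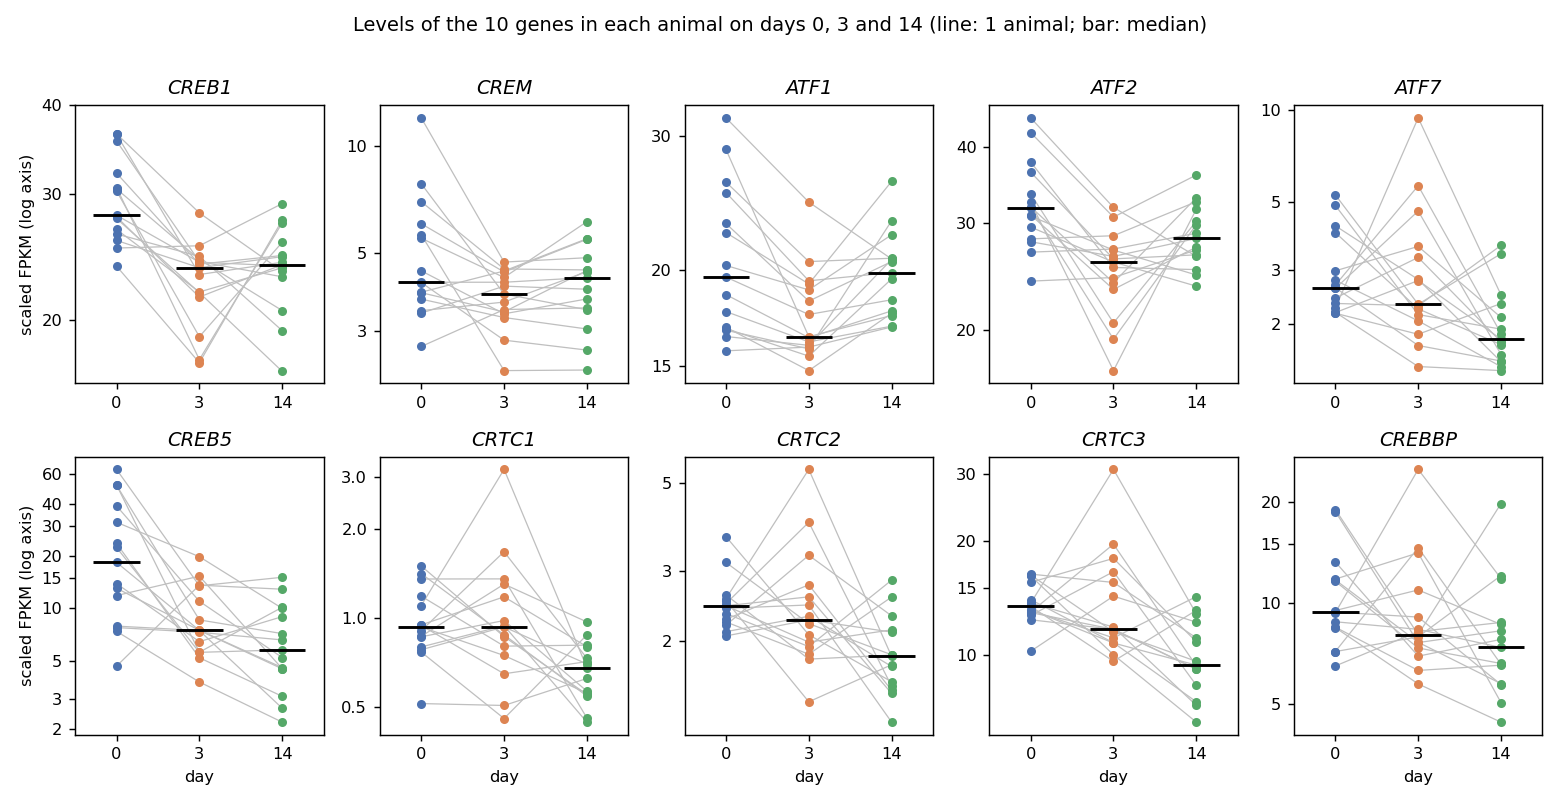
Level of each of the 10 genes in scaled FPKM (log axis, a separate range for each gene) on days 0, 3 and 14. Points are the 15 animals, grey lines join the samples of 1 animal and black bars mark medians. CREB1 and ATF2 are lower on day 3, the 3 CRTC genes and ATF7 are lower on day 14, and the day 3 point of animal 8 is the highest for ATF7, the CRTC genes and CREBBP.

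These calls depended on how the libraries were put on one scale. With each library scaled instead to 14 pan-leukocyte genes such as PTPRC, the median of all tested genes moved to 0.15, 0.24 and 0.09, and of the 10 genes CREB5 alone stayed called on day 3 and on day 14 vs. day 0, while ATF1 and ATF2 were called as rises on day 14 vs. day 3. Over all tested genes 2931, 8141 and 2562 were called on that scale, in place of 2292, 6753 and 2498. Without TMM the median of all tested genes was −0.36 on day 14 vs. day 0 and all 10 genes were called as falls. In that fit 9290 of the 18753 tested genes were called in either direction. With the RNA integrity number of each library, which rose on average from day 0 to day 14, as a covariate, 2 of the 10 genes stayed called on day 14 vs. day 0 (CREB1 and CREB5), and 0 on day 14 vs. day 3 by limma, where 6 had an unadjusted p under 0.05. The part of RNA quality in the falls was not tested beyond this fit.

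**Figure D2:**
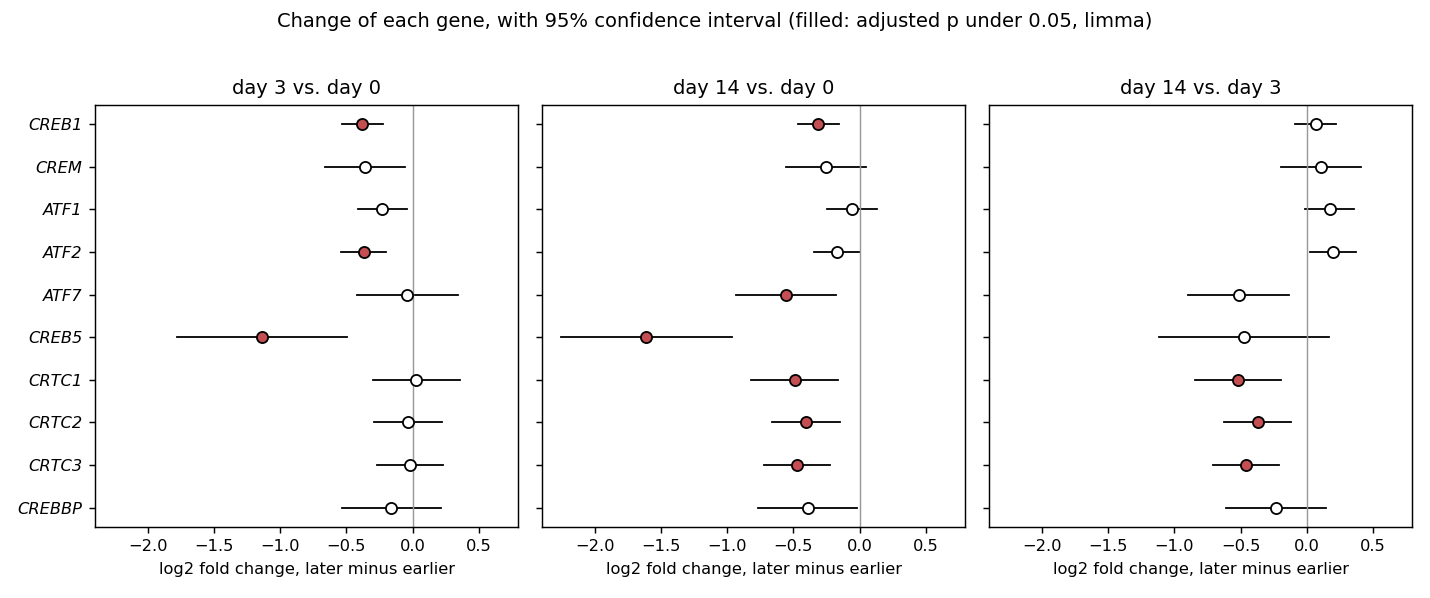
Log2 fold change (later minus earlier day) of each of the 10 genes in the 3 comparisons, with 95% confidence intervals. Filled points passed an adjusted p of 0.05 in limma. All filled points lie to the left of 0, and CREB5 has the largest falls in both comparisons with day 0.

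CREB1, which binds the CRE as a dimer and is the main target of protein kinase A in this family, fell on day 3 and remained lower on day 14. On day 0 its level ranged from 23.8 to 36.5 scaled FPKM with a median of 28.0. On day 3 the range was 17.4 to 28.2 with a median of 23.6, and on day 14 it was 16.9 to 29.1 with a median of 23.9. The highest day 3 library thus lay close to the day 0 median, and 14 of 15 animals were lower on day 3 than on day 0. CREB1 fell by 23.2% on day 3 (95% confidence interval −31.1% to −14.4%), a log2 fold change of −0.38 ± 0.08 (SE) with a limma adjusted p of 0.00155. Against day 0 it fell by 19.4% on day 14 (log2 fold change −0.31, adjusted p = 0.00158) and was lower in 13 animals. Between days 3 and 14 the log2 fold change was 0.07 (95% confidence interval −0.09 to 0.23, adjusted p = 0.582). Without the day 0 libraries of animals 7, 11 and 15 CREB1 was still called in both comparisons with day 0 (adjusted p = 0.0107 and 0.0154). With the RNA integrity covariate it was called as well (adjusted p = 0.00640 and 0.0419). On the pan-leukocyte scale the log2 fold changes were −0.21 and −0.00 (adjusted p = 0.131 and 0.976).

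ATF1, a close relative of CREB1 that dimerizes with it, ranged from 15.7 to 31.7 scaled FPKM on day 0 (median 19.6), from 14.8 to 24.6 on day 3 (median 16.4) and from 16.9 to 26.2 on day 14 (median 19.9). Its day 3 levels were lower than on day 0 in 14 of 15 animals, and its day 14 levels were higher than on day 3 in 14 of 15. Neither step passed the test with 1 mean per time point. The log2 fold change was −0.23 on day 3 vs. day 0 (adjusted p = 0.0939) and 0.17 on day 14 vs. day 3 (adjusted p = 0.196). In the fit with a replicate block for the animal, the day 3 fall of ATF1 was called (adjusted p = 0.0251) and the later step had an adjusted p of 0.0814. With the RNA integrity covariate added to the block the day 3 fall stayed called (adjusted p = 0.0476). It was −0.11 without the day 0 libraries of animals 7, 11 and 15 (adjusted p = 0.458 without the block). On the pan-leukocyte scale the day 3 value was −0.06 (adjusted p = 0.741, also without the block). The log2 fold change of ATF1 on day 14 vs. day 0 was −0.06 (95% confidence interval −0.24 to 0.13, adjusted p = 0.661).

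CREM, whose internal promoter also gives rise to the short repressor ICER, had a lower level than its relatives. Gene-level values do not separate ICER from full-length CREM. It ranged from 2.72 to 12 scaled FPKM on day 0, from 2.32 to 4.70 on day 3 and from 2.33 to 6.11 on day 14, with medians of 4.12, 3.82 and 4.25. The day 0 libraries had the widest spread, with animal 11 at the top and animal 2 next at 7.82. The log2 fold change was −0.36 on day 3 (adjusted p = 0.110, lower in 11 of 15 animals) and −0.25 on day 14 (adjusted p = 0.192, lower in 8). A replicate block for the animal made the day 3 fall a call (adjusted p = 0.0353). Without the day 0 libraries of animals 7, 11 and 15 the log2 fold change on day 3 was −0.19 (adjusted p = 0.429 without the block).

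ATF2, a CRE-binding partner of JUN that p38 and JNK kinases activate, had the highest mean of the 10 genes on each day. It ranged from 24.1 to 44.7 scaled FPKM on day 0 (median 31.8), from 17.1 to 31.8 on day 3 (median 25.9) and from 23.6 to 36.0 on day 14 (median 28.3). The highest day 3 library only reached the day 0 median, and 12 of 15 animals were lower on day 3 than on day 0. ATF2 fell by 22.6% on day 3 (95% confidence interval −31.3% to −12.9%), a log2 fold change of −0.37 ± 0.09 (SE, adjusted p = 0.00394). Without the day 3 library of animal 8 and the day 0 libraries of animals 7, 11 and 15 the log2 fold change was −0.24 (adjusted p = 0.0362). By day 14 the log2 fold change from day 0 was −0.17 (adjusted p = 0.110). The step from day 3 to day 14 was 0.20 (adjusted p = 0.104, higher in 11 of 15 animals), and on the pan-leukocyte scale, where the day 3 fall was not called (−0.20, adjusted p = 0.177), this step was 0.34 (adjusted p = 0.0228).

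ATF7, the closest relative of ATF2, is described as a stress-responsive repressor in immune cells. It ranged from 2.166 to 5.28 scaled FPKM on day 0 (median 2.62), from 1.45 to 9.42 on day 3 (median 2.32) and from 1.41 to 3.61 on day 14 (median 1.78). The day 3 level of animal 8 was well above the second highest, that of animal 2 at 5.65. Its log2 fold change on day 3 vs. day 0 was −0.04, with a 95% confidence interval of −0.42 to 0.34. ATF7 fell by 31.9% on day 14 vs. day 0 (log2 fold change −0.55 ± 0.19 SE, adjusted p = 0.0184) and was lower in 12 of 15 animals. That call was lost without animal 1 (adjusted p = 0.0509) and without the day 0 libraries of animals 7, 11 and 15 (adjusted p = 0.0691), with the RNA integrity covariate (adjusted p = 0.348) and on the pan-leukocyte scale (adjusted p = 0.251). From day 3 to day 14 the log2 fold change was −0.51 (adjusted p = 0.0590), and this step was called when the animal entered as a replicate block (adjusted p = 0.0403). Without the day 3 library of animal 8 it was −0.39 (adjusted p = 0.131).

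CREB5, a member of the ATF2 branch, had the largest changes from day 0 of the 10 genes and their widest spread on day 0. On day 0 its level ranged from 4.64 scaled FPKM in animal 5 to 63.8 in animal 15, with a median of 18.5. The next highest day 0 library was that of animal 7 at 51.9. On day 3 the range was 3.76 to 19.9 (median 7.47), and on day 14 it was 2.20 to 15.2 (median 5.76). More than one day 0 library lay above every later library, while the lowest day 0 library lay below the medians of both later days. CREB5 fell by 54.6% on day 3 (95% confidence interval −70.9% to −29.0%, log2 fold change −1.14 ± 0.32 SE, adjusted p = 0.0159), and 13 of 15 animals were lower. From day 0 to day 14 it fell by 67.3% (95% confidence interval −79.1% to −48.9%, log2 fold change −1.61 ± 0.32 SE, adjusted p = 1.24e-04), and 14 of 15 animals were lower. Between days 3 and 14 the log2 fold change was −0.47 (95% confidence interval −1.12 to 0.17, adjusted p = 0.320).

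The day 14 fall of CREB5 was called under every scaling tried, with log2 fold changes of −1.31 on the pan-leukocyte scale (adjusted p = 1.50e-04) and −2.03 without TMM (adjusted p = 2.36e-07), and with the RNA integrity covariate (−1.30, adjusted p = 0.0103). Without the day 0 libraries of animals 7, 11 and 15 it was −1.22 (adjusted p = 0.00162). The day 3 fall was less steady. Without those 3 libraries it was −0.74 (adjusted p = 0.115), and with the RNA integrity covariate −0.99 (adjusted p = 0.0548). Once pairing by animal entered the fit, the day 3 fall was called both without that covariate (adjusted p = 0.00309) and with it (−1.01, adjusted p = 0.0153).

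Neutrophil and monocyte genes were high in the same day 0 libraries as CREB5. The 11 genes of the neutrophil list summed to between 1929 and 45093 scaled FPKM on day 0 (median 5020), 947 and 7551 on day 3 (median 3386), and 1098 and 5138 on day 14 (median 2732). The highest day 0 sums were those of animals 15, 11 and 7, at 45093, 41826 and 31646. The 9 monocyte genes were highest on day 0 in the same animals, at 4204, 7814 and 1975 in that order, with a median of 1514. Animal 6 came close to animal 7 with a monocyte sum of 1924, and its CREB5 level was 7.76. By the same limma fit 7 of the 11 neutrophil genes fell on day 3 and 10 on day 14 vs. day 0 (63.6% and 90.9%, beside 6.19% and 17.3% of all tested genes). None of the 11 was at 0 in any library. The part of neutrophils or monocytes in the fall of CREB5 was not tested. The tested genes most like CREB5 over the 45 libraries were MXD1 (r = 0.98) and KCNJ15 (r = 0.97), and with the 4 libraries that stood apart left out r was 0.97 and 0.95. These and all other correlations given here describe log2 levels over 45 libraries, of which each animal contributed 3.

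**Figure D3:**
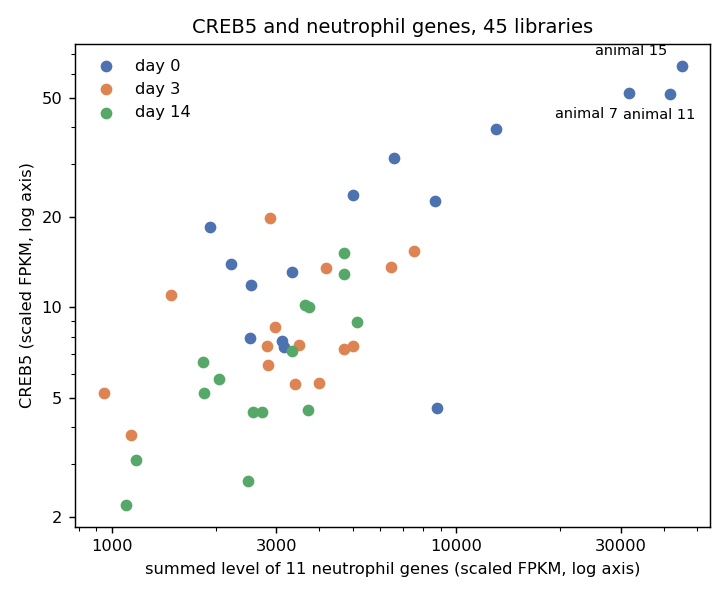
CREB5 level against the summed level of 11 neutrophil genes in each of the 45 libraries, both in scaled FPKM on log axes, coloured by day. The day 0 libraries of animals 7, 11 and 15 lie at the top right, with CREB5 at 51.6 or more, and the day 14 libraries reach no further than 15.2.

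The CRTC coactivators shared a different course, with little change of their means on day 3 and lower levels on day 14. CRTC3, the most abundant of them, ranged from 10.2 to 16.3 scaled FPKM on day 0 (median 13.4), from 9.62 to 30.8 on day 3 (median 11.7) and from 6.65 to 14.2 on day 14 (median 9.40). The day 3 maximum was again the library of animal 8, followed by animal 2 at 19.6. Its log2 fold change on day 3 vs. day 0 was −0.02 (95% confidence interval −0.27 to 0.23), although 10 of 15 animals were lower. CRTC3 fell by 27.9% on day 14 vs. day 0 (95% confidence interval −39.4% to −14.3%, log2 fold change −0.47 ± 0.12 SE, adjusted p = 0.00251) and by 27.1% on day 14 vs. day 3 (−0.46, adjusted p = 0.0152). In both comparisons 13 of 15 animals were lower. Without the day 3 library of animal 8 the step from day 3 was −0.37 and still called (adjusted p = 0.0310).

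CRTC2, known from liver as a glucagon-responsive coactivator, ranged from 2.06 to 3.67 scaled FPKM on day 0 (median 2.46), from 1.41 to 5.42 on day 3 (median 2.27) and from 1.25 to 2.85 on day 14 (median 1.83). Its day 14 median lay below the lowest day 0 library, while its day 3 median did not. CRTC2 fell by 24.5% on day 14 vs. day 0 (log2 fold change −0.40 ± 0.13 SE, adjusted p = 0.0105, lower in 11 of 15 animals). From day 3 to day 14 it fell by 22.6% (−0.37, adjusted p = 0.0444, lower in 10). The later call was lost without the day 3 library of animal 8 (−0.29, adjusted p = 0.0986). It was also lost when both other libraries of that animal were left out as well (adjusted p = 0.128) and without any 1 of animals 1, 2, 3, 9, 10, 12, 13 and 14, where the adjusted p ranged from 0.0606 without animal 1 to 0.123 without animal 2. From day 0 to day 3 the log2 fold change was −0.03 (95% confidence interval −0.29 to 0.22).

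CRTC1, best known from neurons, was the least abundant of the 10 genes on each day. It ranged from 0.515 to 1.502 scaled FPKM on day 0 (median 0.934), from 0.459 to 3.18 on day 3 (median 0.935) and from 0.446 to 0.972 on day 14 (median 0.682). The day 14 libraries lay within a narrow band whose top was close to the medians of both earlier days. CRTC1 fell by 28.9% on day 14 vs. day 0 (log2 fold change −0.49 ± 0.16 SE, adjusted p = 0.0156, lower in 12 of 15 animals) and by 30.2% on day 14 vs. day 3 (−0.52, adjusted p = 0.0307, lower in 11). Without the day 3 library of animal 8 the later step was −0.40 (adjusted p = 0.0655). Leaving out any 1 of animals 2, 8, 9, 13 and 14 also ended that call, with adjusted p from 0.0516 without animal 14 to 0.0857 without animal 8. From day 0 to day 3 the log2 fold change was 0.03 (95% confidence interval −0.30 to 0.36).

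The 3 CRTC genes stood in nearly the same proportions at each time point. On days 0, 3 and 14 CRTC3 made up 79.6% ± 3.07 (SD, n = 15), 79.7% ± 2.58 and 79.4% ± 3.47 of the summed CRTC level. The CRTC2 share was 14.6%, 14.4% and 15.1%, and the CRTC1 share 5.77%, 5.89% and 5.42%. The median of the sum was 16.6, 14.8 and 12.1 scaled FPKM on days 0, 3 and 14. With the RNA integrity covariate none of the day 14 vs. day 0 falls of CRTC1, CRTC2 and CRTC3 was called by limma (log2 fold changes −0.30, −0.34 and −0.27, adjusted p = 0.275, 0.101 and 0.156), nor were they on the pan-leukocyte scale (−0.23, −0.11 and −0.17, adjusted p = 0.321, 0.541 and 0.332).

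CREBBP, the acetyltransferase that phosphorylated CREB1 recruits, ranged from 6.49 to 19.0 scaled FPKM on day 0 (median 9.40), from 5.74 to 25.0 on day 3 (median 8.05) and from 4.42 to 19.8 on day 14 (median 7.37). Its medians went down with time, but the library of animal 15 was the highest on day 0 and again on day 14. No comparison passed the test. The log2 fold change was −0.16 on day 3 (adjusted p = 0.639), −0.39 on day 14 vs. day 0 (95% confidence interval −0.77 to −0.02, adjusted p = 0.0940, lower in 11 of 15 animals) and −0.23 on day 14 vs. day 3 (adjusted p = 0.415). Without animal 8 the day 14 fall was −0.45 (adjusted p = 0.0445), while without any other 1 animal it was not called. It was −0.81 without TMM (adjusted p = 2.44e-04). Without the day 0 libraries of animals 7, 11 and 15 it was −0.23 (adjusted p = 0.362). With the RNA integrity covariate it was −0.10 (adjusted p = 0.785), and on the pan-leukocyte scale −0.09 (adjusted p = 0.699).

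**Figure D4:**
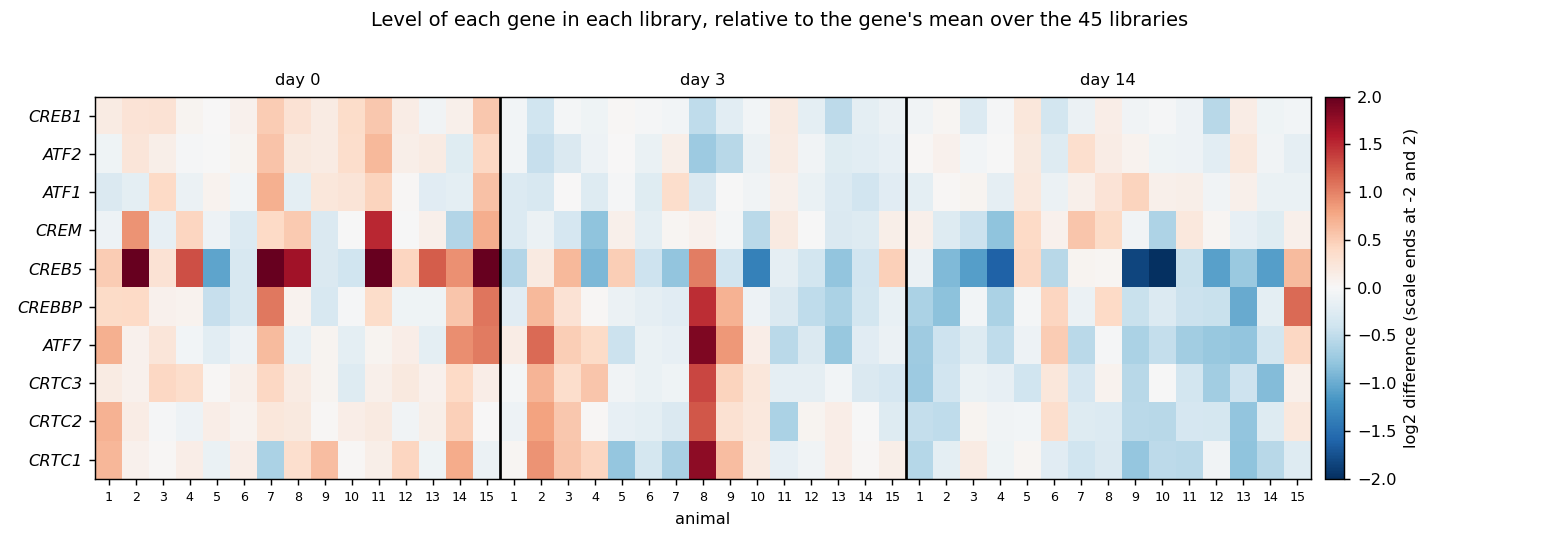
Log2 level of each of the 10 genes (rows) in each of the 45 libraries (columns, by day and animal) relative to the gene's own mean; red is above and blue below that mean, and colours saturate at a difference of 2. CREB5 is strongest in the day 0 libraries, and the day 3 library of animal 8 is red for CREBBP, ATF7 and the CRTC genes and blue for CREB1, ATF2 and ATF1.

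On each day ATF2 and CREB1 had the highest means and CRTC1 the lowest, a comparison FPKM allows since it is per gene length. On day 0 the order of mean scaled FPKM was ATF2 (32.6 ± 5.63, SD, n = 15), CREB1 (29.6 ± 4.09), CREB5 (24.6 ± 18.9), ATF1 (21.1 ± 4.995), CRTC3 (13.8 ± 1.68), CREBBP (10.7 ± 3.82), CREM (5.17 ± 2.37), ATF7 (3.03 ± 1.03), CRTC2 (2.51 ± 0.414) and CRTC1 (0.994 ± 0.271). Neighbours in that order differed by more than their spread (mean ± SD) only between ATF1 and CRTC3 and between CRTC2 and CRTC1. CREB5 was at rank 3 on day 0 and at rank 6 on days 3 and 14, at 9.22 ± 4.54 and 6.89 ± 3.83. On day 14 the gaps larger than the spread lay between ATF1 (19.9 ± 2.61) and CRTC3 (10.1 ± 2.26), between CREM (4.14 ± 1.07) and ATF7 (2.03 ± 0.676), and between CRTC2 (1.89 ± 0.439) and CRTC1 (0.670 ± 0.153). On day 3 the only such gap was that between CREB5 and CREM (3.77 ± 0.672).

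Across libraries most of the 10 genes could be placed in groups that crossed the protein families. The groups were not planned in advance, so the r values within and between them describe these libraries and do not test the grouping. The pairs among CREB1, ATF1 and ATF2 had r from 0.60 to 0.81, and the pairs among CRTC1, CRTC2, CRTC3, ATF7 and CREBBP had r from 0.48 to 0.87. Pairs with 1 gene from each group had r from −0.50 to 0.15. With the 4 libraries that stood apart left out, the ranges were 0.36 to 0.68, 0.48 to 0.82 and −0.48 to 0.10. CREM and CREB5 were placed in neither group. CREB5 varied most like CREM (r = 0.72) and CREBBP (0.64), and had r of 0.53 with CREB1 and 0.49 with ATF7. CREM had r of 0.52 with ATF2 and 0.34 with CREBBP.

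Over all tested genes with a mean of at least 5 CPM (fragments scaled to the library total), the pattern of CREBBP was most like that of EP300, its paralog and fellow acetyltransferase (r = 0.95), and TNRC6B (0.95). ATF7 was closest to MED12, a subunit of the Mediator kinase module, and ZNF592 (both 0.95). For CRTC3 the closest genes were PACS1 (0.92) and ZZEF1 (0.91), for CRTC2 USP36 and MLXIP (both 0.87), and for CRTC1 ZMIZ2 (0.87) and ANKRD52 (0.85). For CREB1 they were LOC103230437 (0.91) and ZNF148 (0.90), for ATF2 FOXN2 and PPP1R2 (both 0.90), and for ATF1 PAPD4 (0.78) and ERI1 (0.77). CREM was closest to LY96, the partner of the endotoxin receptor (0.87), and to the interferon gamma receptor subunit IFNGR1 (0.86).

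Of 33 tested genes for kinases and phosphatases that act on these proteins, 2 rose and 3 fell on day 3 vs. day 0, 3 rose and 11 fell on day 14 vs. day 0, and 0 rose and 4 fell on day 14 vs. day 3 in limma. These are 15.2%, 42.4% and 12.1% of the list, near the 12.2%, 36.0% and 13.3% of all tested genes, and the median log2 fold changes were −0.10, −0.02 and −0.04. PRKAR2B, a regulatory subunit of protein kinase A that is abundant in platelets, rose from 33.1 ± 17.8 to 63.0 ± 21.7 scaled FPKM on day 3 (SD, n = 15, log2 fold change 0.99, adjusted p = 0.00123). All 8 platelet genes rose on day 3 as well, and the part of platelets in the rise of PRKAR2B was not tested. On day 14 it was at 41.9 ± 11.5, and the difference from day 3 (−0.56, adjusted p = 0.0464) was lost without any 1 of animals 1 to 5, 9 and 11 to 15 (adjusted p up to 0.0912 without animal 4), with the RNA integrity covariate (0.0562, but 0.0443 with the replicate block added) and on the pan-leukocyte scale (0.131). STK11, the kinase that activates the salt-inducible kinases, rose on day 3 (log2 fold change 0.67, adjusted p = 0.0190, but 0.0591 without animal 11) and stood at 1.12 on day 14 vs. day 0 (adjusted p = 2.12e-05). GSK3A, which phosphorylates CREB proteins after protein kinase A, rose on day 14 vs. day 0 (1.42, adjusted p = 8.33e-05).

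The genes for calcineurin and the salt-inducible kinases, the enzymes that release and retain CRTC proteins, are given for every tested member and were chosen after their values were seen. The catalytic subunit PPP3CA had log2 fold changes of −0.41 on day 3 and −0.53 on day 14 vs. day 0 (adjusted p = 0.0181 and 4.64e-04). Without the day 0 libraries of animals 7, 11 and 15 these were −0.23 and −0.35 (adjusted p = 0.132 and 0.00445), so that the fall on day 14 alone stayed called. The regulatory subunit PPP3R1 was at −0.51 on day 14 vs. day 0 (adjusted p = 0.00805), at −0.32 without those 3 libraries (adjusted p = 0.0760) and at −0.29 with the RNA integrity covariate (adjusted p = 0.252, and 0.145 with the replicate block added), while on the pan-leukocyte scale it was at −0.20 (adjusted p = 0.234). On day 3 vs. day 0 PPP3R1, PPP3CB and PPP3CC were at −0.34, −0.10 and −0.12 (adjusted p = 0.149, 0.476 and 0.218). The other catalytic subunits were on day 14 vs. day 0 at −0.02 (PPP3CB, adjusted p = 0.887) and −0.16 (PPP3CC, adjusted p = 0.0495, and 0.15 with an adjusted p of 0.339 on the pan-leukocyte scale; with the RNA integrity covariate the adjusted p was 0.0794). SIK2 was at 0.02 on day 3 vs. day 0 and fell on day 14, by 0.32 on the log2 scale vs. day 0 (adjusted p = 0.00868) and by 0.34 vs. day 3 (adjusted p = 0.0213). Neither fall was called with the RNA integrity covariate (adjusted p = 0.137 and 0.0659) or on the pan-leukocyte scale (−0.02 and −0.20, adjusted p = 0.898 and 0.301). SIK1 and SIK3 were at 0.32 and 0.09 on day 3 vs. day 0 (adjusted p = 0.164 and 0.747, higher in 11 and 8 of 15 animals), at 0.03 and 0.02 on day 14 vs. day 0 (adjusted p = 0.878 and 0.939) and at −0.28 and −0.07 on day 14 vs. day 3 (adjusted p = 0.189 and 0.766).

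Among 14 tested genes for other CREB and ATF proteins, 2 rose and 2 fell on day 3 vs. day 0, 4 rose and 2 fell on day 14 vs. day 0, and 1 rose and 0 fell on day 14 vs. day 3, which is 28.6%, 42.9% and 7.14% of the list, beside 12.2%, 36.0% and 13.3% of all tested genes. ATF5, a factor of the mitochondrial stress response, rose from 1.73 ± 0.925 scaled FPKM on day 0 to 3.19 ± 1.43 on day 3 (log2 fold change 0.90, adjusted p = 0.0206, but 0.0561 without animal 11) and 5.21 ± 3.28 on day 14 (1.42, adjusted p = 5.39e-05). ATF6B, a membrane-bound factor of the endoplasmic reticulum, had log2 fold changes of 0.38 and 0.32 on days 3 and 14 vs. day 0 (adjusted p = 0.0325 and 0.0345), although without TMM its value on day 14 was −0.10 and that on day 3 was not called (adjusted p = 0.180). The RNA integrity covariate ended its day 14 call (0.0667, but 0.00874 with the replicate block added), and leaving out the day 3 library of animal 8 its day 3 call (0.0532), and with no filter on low values neither was called (0.0552 and 0.0517). The day 3 call of ATF6B was lost without any 1 of animals 2, 7, 8, 9 and 13 (adjusted p up to 0.0840, without animal 8), and the day 14 call without any 1 of animals 3, 6, 8, 9 and 10 (up to 0.0672, without animal 3). CREBRF, which controls the stability of a CREB3 family factor, had log2 fold changes of −0.44 and −0.32 (adjusted p = 0.0167 and 0.0435). Neither CREBRF value was called without the day 0 libraries of animals 7, 11 and 15 (−0.35 and −0.23, adjusted p = 0.0794 and 0.178), and neither was on the pan-leukocyte scale (−0.28 and −0.01, adjusted p = 0.132 and 0.956) or with the RNA integrity covariate (adjusted p = 0.0597 and 0.425, but 0.0220 on day 3 and 0.202 on day 14 with the replicate block added). Its day 3 call was also lost without animal 2 (adjusted p = 0.0538), and its day 14 call without any 1 of animals 2, 3, 4, 6, 9, 10, 11, 12, 14 and 15 (up to 0.0920, without animal 4). The median log2 fold changes of these 14 genes were 0.12, 0.17 and 0.06.

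Of 16 other coactivators and corepressors, 0 rose and 1 fell on day 3 vs. day 0, 1 rose and 1 fell on day 14 vs. day 0, and 1 rose and 3 fell on day 14 vs. day 3, which is 6.25%, 12.5% and 25.0% of the list, beside 12.2%, 36.0% and 13.3% of all tested genes. NCOA3, a nuclear receptor coactivator that works with CREBBP, went from 60.5 ± 17.6 scaled FPKM on day 0 to 46.4 ± 8.101 on day 3 and 35.4 ± 5.71 on day 14. It fell on day 14 vs. day 0 (log2 fold change −0.74, adjusted p = 3.44e-06) and was lower in 15 of 15 animals. Each step was called as well (adjusted p = 0.0307 for day 3 vs. day 0 and 0.0198 for day 14 vs. day 3). The first step was lost without the day 0 libraries of animals 7, 11 and 15 (−0.22, adjusted p = 0.165) and without any 1 of animals 2, 7, 11, 13 and 14 (up to 0.0907, without animal 7), and the second without animal 9 (0.0510). On the pan-leukocyte scale and with the RNA integrity covariate neither step was called (adjusted p = 0.165 and 0.115 for the first, 0.0557 and 0.0798 for the second), and the first was not without TMM (0.0715) or with the covariate and the replicate block together (0.0533), a fit in which the second stayed called (0.0430). KAT2B, an acetyltransferase, rose on day 14 vs. day 0 (log2 fold change 1.79, adjusted p = 3.46e-05).

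Of 24 tested genes that textbooks list as CRE targets, 2 rose and 5 fell on day 3 vs. day 0, 2 rose and 8 fell on day 14 vs. day 0, and 0 rose and 2 fell on day 14 vs. day 3. These are 29.2%, 41.7% and 8.33% of the list, beside 12.2%, 36.0% and 13.3% of all tested genes, and the median log2 fold changes were 0.01, −0.17 and −0.14. RGS2, which dampens G protein signalling, went from 601 ± 476 scaled FPKM on day 0 to 231 ± 118 on day 3 (log2 fold change −1.21, adjusted p = 0.0109) and 296 ± 146 on day 14 (−0.88 vs. day 0, adjusted p = 0.0279). FOSL2 and JUNB, components of the AP-1 factor, had log2 fold changes of −0.78 and −0.87 on day 3 (adjusted p = 0.0341 and 0.0142) and of −1.06 and −1.01 on day 14 vs. day 0 (adjusted p = 9.47e-04 and 9.75e-04). Without the day 0 libraries of animals 7, 11 and 15 the day 3 values of RGS2, FOSL2 and JUNB were −0.82, −0.44 and −0.50 and none was called by limma (adjusted p = 0.0801, 0.237 and 0.112). FOSL2 and JUNB then stayed called on day 14 vs. day 0 (−0.72 and −0.64, adjusted p = 0.0120 and 0.0119) and RGS2 did not (−0.48, adjusted p = 0.219). The day 14 call of RGS2 was also lost on the pan-leukocyte scale (adjusted p = 0.0966), with the RNA integrity covariate (0.161, and 0.0612 with the replicate block added) and without any 1 of animals 2, 4 and 11 (up to 0.0697, without animal 2), and the day 3 call of FOSL2 with the RNA integrity covariate (0.0889, but 0.0247 with the replicate block added), with no filter on low values (0.0586) and without any 1 of animals 1, 2, 4, 7, 11 and 13 (up to 0.108, without animal 7). Whether the factors act on these genes in blood was not measured.

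The blood cell lists differed in how many of their genes were called, beside 12.2%, 36.0% and 13.3% of all tested genes in the 3 comparisons. Of 10 erythroid genes, 6 rose on day 3 and 10 on day 14 vs. day 0, and their sums ranged from 466 to 24609 scaled FPKM on day 0, 3985 to 45333 on day 3 and 7868 to 66697 on day 14. Of 14 pan-leukocyte genes, 3 fell on day 3 and 8 on day 14 vs. day 0, with medians of their sums at 2638, 2401 and 2326 scaled FPKM. Of 8 platelet genes, 8 rose on day 3 and 3 on day 14 vs. day 0. Of 8 NK cell genes, 3 rose on day 3 and 5 on day 14 vs. day 0. Calls were below the share of all tested genes for monocytes, T cells and B cells on day 14 vs. day 0. Of 9 monocyte genes, 2 rose on day 3 (22.2%) and 2 fell on day 14 (22.2%). For T cells, 1 of 9 genes fell on day 3 (11.1%) and 1 rose on day 14 (11.1%), and for B cells 2 of 8 fell on day 14 (25.0%). From day 3 to day 14, 3 of 10 erythroid, 2 of 8 NK cell and 1 of 9 T cell genes rose, while 3 of 8 platelet, 3 of 8 B cell, 1 of 9 monocyte and 4 of 14 pan-leukocyte genes fell. Their part in the falls of the CREB, ATF and CRTC genes was not tested.

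**Figure D5:**
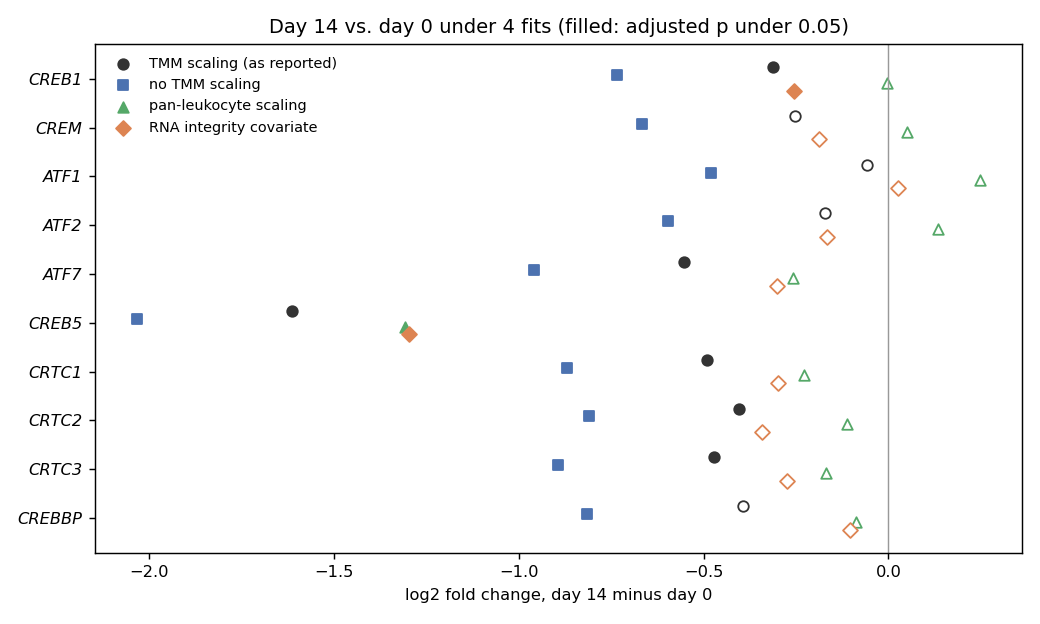
Log2 fold change on day 14 vs. day 0 of each of the 10 genes with TMM scaling, without it, with scaling to 14 pan-leukocyte genes, and with TMM and the RNA integrity number as a covariate. Filled symbols have an adjusted p under 0.05. All 10 squares (no TMM) are filled, and among the triangles (pan-leukocyte scaling) only that of CREB5 is.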

How the data were processed

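Whole-blood RNA was collected in PAXgene tubes and sequenced from stranded libraries after removal of ribosomal and globin RNA. Reads were demultiplexed with bcl2fastq 2.17, aligned with STAR and counted per gene with HTSeq, per the labels and the study's methods. The deposited values are FPKM, which the authors made from fragment counts, gene length and each library's total, and they were not otherwise scaled. Each non-zero value equalled a whole number of fragments within 0.02, which gave back the counts and hence CPM. Genes over 0.5 CPM in at least 3 samples were tested, a limit of 6.61 to 15.7 fragments depending on the library. FPKM were divided by TMM factors (trims of 30% and 5%), 0.1 was added, and log2 values were fitted with limma 3.58.1 in R 4.3.3 (1 mean per day, all 45 samples), tested on simulated data. Tables were made in Python 3.11.15. Fold changes on this scale understate those of low genes. Genes are known by symbol alone. The sample labels give the last time point as day 14, which is used here, while the series' design text has day 15.

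The 10 genes and all lists were chosen with earlier results of these data known. Named genes were all 10; from each pathway list the 3 called genes with the largest absolute log2 fold change and at least 5 CPM; and, per gene, the 2 tested genes with the highest r. Coactivators held only 2 such genes. The calcineurin and salt-inducible kinase genes were added after their values were seen. PRKACA, JDP2, PDE4A, MCL1, FCGR3B, CTSS, TRAT1, PF4 and LSP1 were among the listed genes not analysed here, and CREB3L1, CREB3L3, AREG and BDNF did not pass the filter. RNA integrity numbers came from the study's supplement. Samples of 1 animal pair by its label: after removal of day means, same-animal samples correlated at a mean r of 0.328 across genes and different animals at −0.0382, and 38 of 45 samples correlated best with their own animal.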

Additional observations from a re-analysis of the deposited data

How the results depend on the processing

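On day 3 vs. day 0, where 3 of the 10 genes were called, 1 was called with pan-leukocyte scaling. On day 14 vs. day 0 the 6 calls became 10 without TMM, 1 with pan-leukocyte scaling, and 2 with the RNA integrity covariate alone or together with the replicate block. On day 14 vs. day 3 the 3 calls became 7 without TMM, 1 without a filter, 1 without the day 3 library of animal 8, and 0 with the RNA integrity covariate, with or without the replicate block (6 and 4 at an unadjusted p under 0.05). With pan-leukocyte scaling there were 2, both rises. Leaving out each animal in turn gave 3 to 3, 5 to 7 and 1 to 4 calls, with 1 without any of animals 2, 8, 9, 13 and 14. The leaving out of single libraries was chosen after seeing the data.

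With the animal as a replicate block 5 of the 10 genes were called on day 3 vs. day 0 (5 also with the RNA integrity covariate added), and over all tested genes 3592 in place of 2292. On day 14 vs. day 3 the block gave 4455 in place of 2498. It changed no call of the 10 genes other than those of CREM, ATF1 and ATF7 given above. Over all tested genes the RNA integrity covariate gave 1435, 3728 and 1117 calls in the 3 comparisons, and 4069 on day 14 vs. day 0 together with the replicate block. On day 14 vs. day 3 there were 7206 without TMM, 1638 without a filter and 1216 without the day 3 library of animal 8. One animal out gave 1358 to 2359, 5897 to 6903 and 792 to 3115.

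No called change of the 10 genes turned sign under any alternative run. Of the genes named from the lists, ATF6B (called) was at −0.098 on day 14 vs. day 0 without TMM. On day 3 vs. day 0, pan-leukocyte scaling gave 0.12 for ATF7, 0.12 for CRTC2, 0.15 for CRTC3 and 0.0044 for CREBBP. The RNA integrity covariate gave 0.082 for ATF7 and 0.079 for CRTC3, and with the replicate block 0.11 for ATF7, 0.0044 for CRTC2 and 0.075 for CRTC3. Without the day 0 libraries of animals 7, 11 and 15 the values were 0.056 for ATF7, −0.064 for CRTC1 and 0.0004 for CREBBP, and CRTC1 was at −0.010 without TMM, −0.087 without the day 3 library of animal 8 and −0.18 without all 4 libraries. One animal out gave −0.19 to 0.040 for ATF7, −0.074 to 0.081 for CRTC1, −0.11 to 0.021 for CRTC2 and −0.10 to 0.031 for CRTC3. On day 14 vs. day 0, pan-leukocyte scaling gave 0.049 for CREM, 0.25 for ATF1 and 0.14 for ATF2, and ATF1 was at 0.025 with the RNA integrity covariate and 0.063 without the 3 or 4 libraries. On day 14 vs. day 3, leaving out TMM gave −0.31 for CREB1, −0.26 for CREM, −0.21 for ATF1, −0.18 for ATF2, −0.26 for CREBRF and −0.049 for RGS2, and pan-leukocyte scaling gave 0.079 for ATF6B. Beyond the settings themselves, the cause of these shifts was not tested.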
